A study of Homo sapiens with 12 samples.

Results

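The AP-1 genes JUN, JUNB, JUND, FOS, FOSB, FOSL1, FOSL2, ATF3, MAFF and BATF3 were followed by RNA-seq in IMR90 cells, a line of human fetal lung fibroblasts. They were taken by name, as the members of AP-1 and its close partners, and are 10 of the 48162 gene identifiers in the count tables. All 12 libraries came from IMR90 cells grown at 2% oxygen. The 3 control libraries were infected with the empty retroviral vector pBABE-Control. The 3 RAS libraries carried pBABE-HRASG12V, an activated HRAS, and are described by the labels as senescent and secreting the senescence-associated secretory phenotype (SASP), the cytokines and proteases that senescent cells release. The 3 RAS/shDOT1L libraries carried the same HRASG12V vector plus 1 lentiviral hairpin (pLKO.1-shDOT1L) against DOT1L, the methyltransferase of histone H3 lysine 79, and are described as senescent with less SASP. The 3 DOT1L overexpression (DOT1L OE) libraries carried MSCB-hDot1lwt, without activated HRAS, and are described as not senescent but expressing the SASP. Selection lasted 4 days, with puromycin at 3 µg/mL in the first 3 groups and blasticidin at 1 µg/mL in DOT1L OE, so the drug and the vector backbone cannot be told apart from DOT1L in that comparison. The labels give no day of harvest and do not say whether the RAS libraries carried a control hairpin, and a single hairpin stands for the knockdown.

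AP-1 is a family of basic leucine zipper (bZIP) transcription factors that bind DNA only as dimers. A JUN protein (JUN, JUNB, JUND) pairs with itself or with a FOS protein (FOS, FOSB, FOSL1, FOSL2), and can also pair with ATF3 or BATF3. MAFF is a small MAF protein, which has no activation domain of its own and binds related DNA elements with larger bZIP partners. Many of these genes are immediate-early genes, switched on within minutes by growth factor and stress signals through the RAS and MAP kinase pathway, and several of their known targets are proteases and cytokines of fibroblasts. FOS and JUN proteins are also controlled by phosphorylation and degradation, which mRNA levels do not show.

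The promoter windows that hold a TATA box are shown first. They belong to the 3 genes with the largest rise in RAS libraries, which was known when the motif was chosen. A link between motif and rise was not tested. RefSeq windows from 250 bases before to 50 bases after the start site (GRCh38.p14) were matched for 8 members (ATF3 and MAFF have 2 windows each). FOSL1 and BATF3 had no window. TATAAA on the strand of the gene, starting 40 to 20 bases before the start site, stood in the windows of FOS, JUNB and FOSB, and in 2.30% of all 35116 promoter windows; anywhere in the window, it was in those 3 and ATF3 and in 7.33% of all windows. The matched letters are in capitals, each sequence reads 5′ to 3′ on the strand of the gene, and the TATAAA begins 33, 31 and 30 bases before the start site in the order shown.

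FOS promoter, chr14:75278773-75278822, plus strand: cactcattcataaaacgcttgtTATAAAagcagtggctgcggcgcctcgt
JUNB promoter, chr19:12791433-12791482, plus strand: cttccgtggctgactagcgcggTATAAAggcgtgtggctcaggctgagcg
FOSB promoter, chr19:45467944-45467993, plus strand: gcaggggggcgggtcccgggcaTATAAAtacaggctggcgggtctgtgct

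The 8-letter element TGACNTCA, searched on both strands, is of the kind bound by AP-1 dimers that contain an ATF protein. It was found in the windows of 4 of the 8 members (JUN, JUND, ATF3 and MAFF; 4 of 10 windows) and in 7.72% of all windows, beginning 67, 200, 123 and 54 bases before the start site. None of the 4 is among the 3 genes above, although the other ATF3 window holds TATAAA, farther from the start site. Whether this element goes with the expression changes was not tested.

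JUN promoter, chr1:58784085-58784136, minus strand: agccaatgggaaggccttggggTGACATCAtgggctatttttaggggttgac
JUND promoter, chr19:18281793-18281844, minus strand: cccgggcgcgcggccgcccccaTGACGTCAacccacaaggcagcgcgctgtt
ATF3 promoter, chr1:212565262-212565313, plus strand: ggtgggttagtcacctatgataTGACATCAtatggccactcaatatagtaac
MAFF promoter, chr22:38201918-38201969, plus strand: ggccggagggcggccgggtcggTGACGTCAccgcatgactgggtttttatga

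The 7-letter AP-1 element TGANTCA, which does not overlap the 8-letter one, was found in the FOSL2 window alone among the 10 (7.71% of all windows), just after the start site. The CArG box, the serum response element core, was in none of the 10 windows and in 1.29% of all windows. Bases farther upstream than the windows reach were not searched. Whether FOS or another member has a CArG box there was therefore not tested. The promoter hits are matches of letters in short windows, chosen for the search after the expression values were known, and they show no binding.

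The labels were checked on the altered genes first. Levels are in CPM, read counts scaled to a common library size with the TMM factors. DOT1L averaged 31.7 CPM in control libraries and 84.5 in RAS, with 11 after the hairpin was added and 202 in DOT1L OE, and HRAS averaged 86.0, 503, 276 and 79.4 CPM in that order. DOT1L was thus lowest in the knockdown and highest in DOT1L OE, and HRAS was highest in RAS. HRAS was also lower in the knockdown than in RAS, and the part of that difference in the AP-1 values was not tested. The libraries held between 16128055 and 19503457 counts. All 10 fibroblast markers were above 1 CPM in every group, with a summed level of 26700 to 27200 CPM in control and 19400 to 20900 CPM in the other groups. Leukocyte markers summed to at most 3.58 CPM, with CD68 at 0 in all groups. The 6 epithelial markers summed to 117 to 122 CPM in control, 14.7 to 21.6 in RAS and 50.2 to 63.1 in RAS/shDOT1L libraries, with 41.9 to 45.3 in DOT1L OE, most of it KRT19, with CDH1, KRT5 and KRT14 at 0 in RAS. The 5 endothelial markers measured summed to 63.9 to 69.9, 60.5 to 65.5, 23.5 to 28.8 and 134 to 147 CPM in the same order, nearly all of it TEK, with CDH5 at 0 in all groups but RAS/shDOT1L. Their part in the AP-1 values was not tested, and in bulk RNA fewer cells with a transcript and less of it per cell cannot be told apart. Replicates differed by more than sampling noise, but the study describes its replicates both as technical ones of 1 experiment and as biological ones, so the p-values rest on a spread between libraries that may be technical.

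In activated HRAS cells the AP-1 genes changed unevenly: FOSB, FOS and JUNB rose most, MAFF, ATF3 and JUND rose 1.90 to 3.02-fold, FOSL1 rose less, FOSL2 fell, and JUN moved by less than 1.1-fold. Between RAS and control libraries 9 of the 10 members passed the quasi-likelihood test of edgeR (Benjamini-Hochberg adjusted p below 0.05, over all genes), 8 higher and 1 lower, where 64.0% of all 13554 genes tested passed, 31.9% higher and 32.0% lower. By the stricter test for a change of more than 1.5-fold, 6 members passed (JUNB, JUND, FOS, FOSB, ATF3 and MAFF), all higher, against 26.9% of all genes, 13.4% higher. All 10 members passed the filter on low counts in every comparison. Of these 6 calls, JUND was lost with an offset for transcript GC content and ATF3 when libraries were scaled by size alone (glmTreat adjusted p = 0.0570). With the GC offset 8 members passed the test for any change, 6 higher and 2 lower (JUN and FOSL2). FOSL1 no longer passed it, and 3702 of 13554 genes were higher and 3518 lower.

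**Figure D1:**
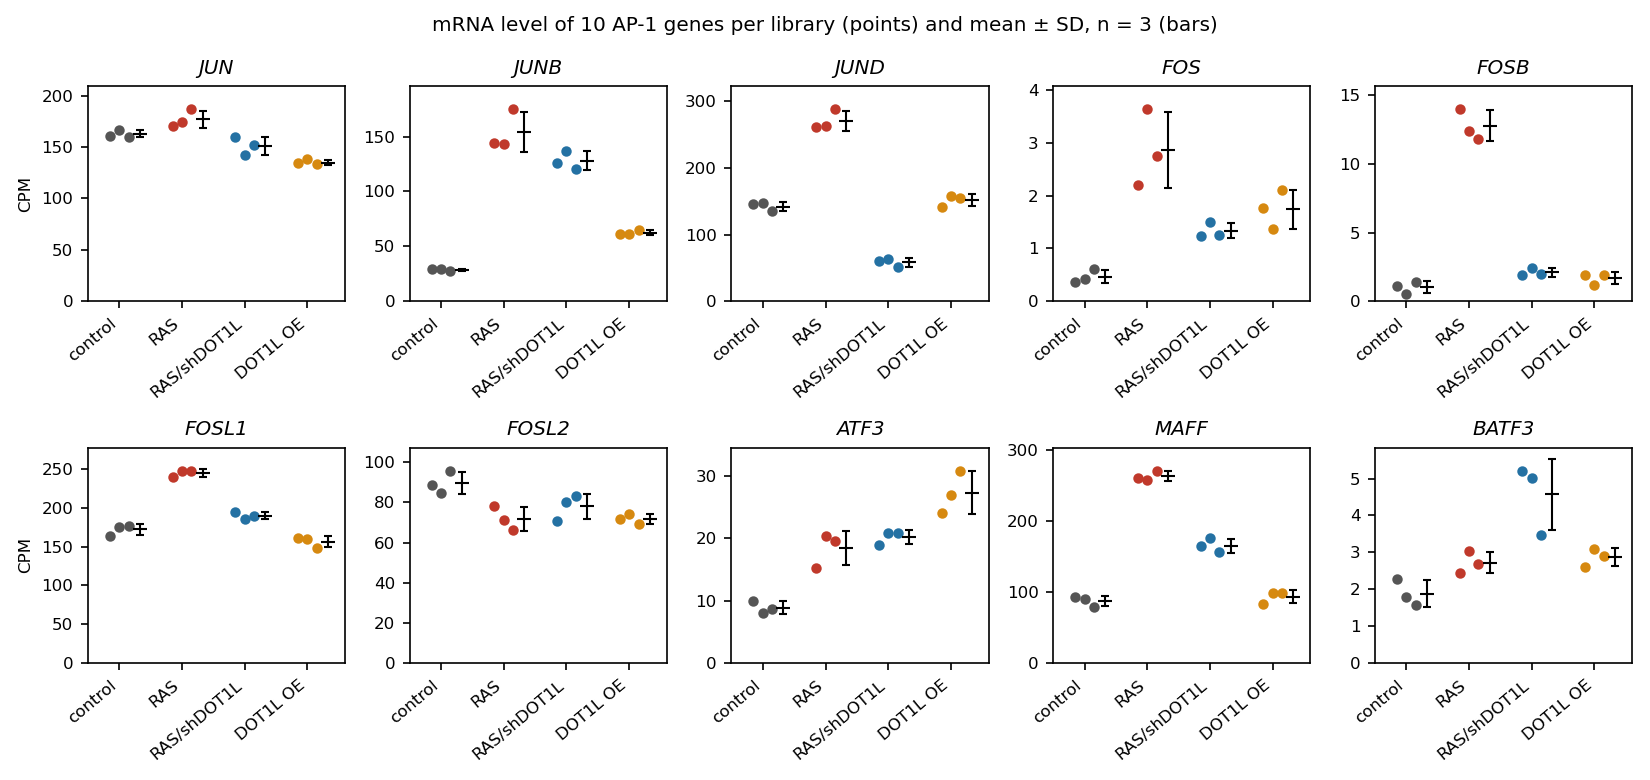
mRNA level of each AP-1 gene (y axis, CPM, each panel with its own scale from 0) in the 12 libraries by group (x axis); points are libraries and bars are the mean ± SD of 3 libraries. JUNB, JUND, FOSB and MAFF are highest in RAS, JUND is lowest in RAS/shDOT1L, and ATF3 is highest in DOT1L OE.

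With DOT1L knocked down in the activated HRAS cells, JUND and FOSB fell several-fold, MAFF fell 1.57-fold, and JUNB, FOSL1 and JUN fell by less than 1.3-fold. HRAS was also lower there, averaging 276 CPM against 503 in RAS, and its part in these changes was not tested. Of the 10 members, 6 passed the test, all lower in RAS/shDOT1L than in RAS, where 52.7% of 13398 genes passed, 26.3% higher and 26.4% lower. Only JUND and FOSB passed the 1.5-fold test, which 17.0% of all genes passed, 8.62% lower. The direction of the small changes depended on base composition: with an offset for transcript GC content 6 members again passed, but 3 were higher (JUNB, FOSL2 and BATF3) and 3 lower (JUND, FOSB and MAFF), where 3061 of 13398 genes were higher and 3188 lower. Scaled by library size alone, 2 were higher (FOSL2 and BATF3) and 5 lower, where 3982 of all genes were higher and 3130 lower.

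In DOT1L OE, without activated HRAS, JUNB, FOS and ATF3 rose, and JUND, FOSB, MAFF and BATF3 did not pass the test. In this comparison 6 of the 10 members passed, 3 higher and 3 lower (JUN, FOSL1 and FOSL2), against 59.9% of 13660 genes, 29.9% in each direction. The 3 that rose passed the 1.5-fold test, and none of the 3 that fell did; 20.8% of all genes passed it, 11.2% higher. FOS lost that call without control replicate 1, DOT1L OE replicate 1 or DOT1L OE replicate 3 (glmTreat adjusted p 0.0510 to 0.0977). RAS/shDOT1L libraries were also set against control: 8 members passed, 6 higher and 2 lower, where 55.5% of 13519 genes passed, 27.9% higher and 27.6% lower. By the 1.5-fold test 4 were higher (JUNB, ATF3, MAFF and BATF3) and 1 lower (JUND), against 19.1% of all genes, 9.44% higher and 9.68% lower. BATF3 passed it narrowly (glmTreat adjusted p = 0.0395) and lost the call in 8 alternatives, among them the GC offset (0.0966) and leaving out control replicate 2 or 3 or RAS/shDOT1L replicate 1 or 2 (0.0861 to 0.119). Without control replicate 1, only 5 members passed that last comparison's test for any change, where 6775 of 13959 genes passed. With the GC offset 7 passed it, 4 higher and 3 lower (JUN, JUND and FOSL2), where 3775 of 13519 genes were higher and 3653 lower. The comparisons share their control or RAS libraries and are not independent of each other.

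**Figure D2:**
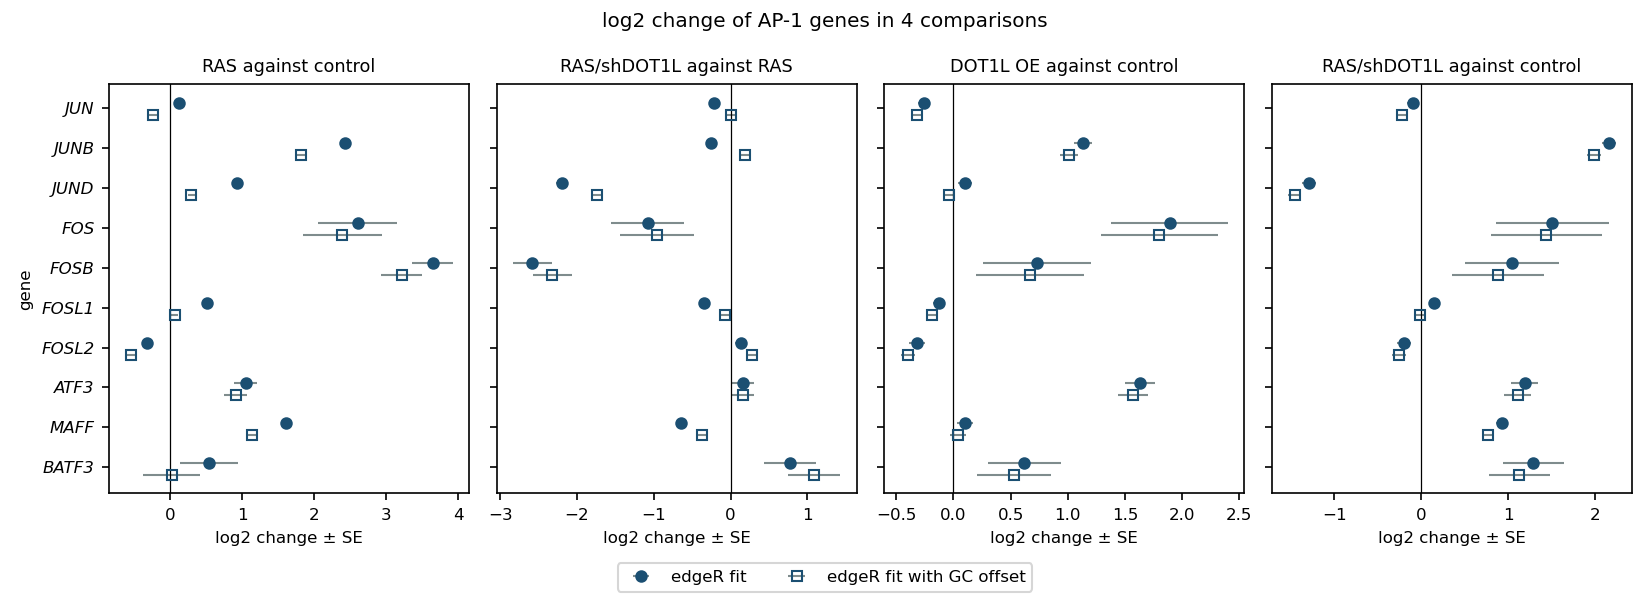
log2 change ± SE of each AP-1 gene (rows) in the 4 comparisons (panels), from edgeR on 3 against 3 libraries; filled circles are the fit as reported and open squares the fit with a GC offset. FOS, FOSB, JUNB, JUND, ATF3 and MAFF lie to the right of 0 in RAS against control under both fits, with FOSL1 and BATF3 close to 0 under the offset. JUN crosses 0 there and JUNB crosses 0 in RAS/shDOT1L against RAS.

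JUNB (ENSG00000171223, chr19:12791486-12793315 of GRCh38, 1 exon) encodes a JUN protein that activates transcription more weakly than JUN itself. Its level was 29.0, 29.5 and 27.4 CPM in the control libraries, 144, 143 and 175 in RAS, 126, 137 and 120 in RAS/shDOT1L, and 61.5, 61.2 and 65.0 in DOT1L OE. The 4 groups did not overlap, and each neighbour in the order from RAS down to control passed the test. RAS exceeded control 5.38-fold (log2 change 2.43 ± 0.08 SE, edgeR adjusted p = 2.35e-23) and DOT1L OE exceeded it 2.19-fold (1.13 ± 0.08, adjusted p = 8.01e-14). In RAS/shDOT1L libraries JUNB was 1.19-fold lower than in RAS (log2 change -0.25 ± 0.07, edgeR adjusted p = 0.00355) and 4.47-fold above control. That small fall was lost without RAS replicate 3 (adjusted p = 0.0782), the library with the highest JUNB value, and turned to a rise of 0.19 with the GC offset (adjusted p = 0.0245). JUNB shares 259 exonic bases with HOOK2 on the other strand, which had 124 to 248 counts a library against 545 to 2737 for JUNB.

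JUND (ENSG00000130522, chr19:18279694-18281622, 1 exon) encodes the JUN protein that is usually present in resting cells. Control libraries held 145, 147 and 135 CPM, RAS libraries 261, 262 and 288, RAS/shDOT1L libraries 60.8, 62.7 and 50.8, and DOT1L OE libraries 142, 158 and 155. RAS stood above and RAS/shDOT1L below all other libraries, while DOT1L OE and control overlapped. It rose 1.90-fold in RAS (log2 change 0.92 ± 0.05, edgeR adjusted p = 1.17e-16). Under the knockdown it was 4.59-fold lower than in RAS (log2 change -2.20 ± 0.07, adjusted p = 6.79e-23) and 2.44-fold lower than in control (-1.29 ± 0.08, adjusted p = 1.51e-14), and it was the only member below control by the 1.5-fold test in any comparison with control run here. DOT1L OE and control differed by 0.10 ± 0.06 on the log2 scale (adjusted p = 0.144), a value that passed without DOT1L OE replicate 1 (0.15, adjusted p = 0.0240) and became -0.04 with the GC offset. The offset also cut the RAS rise to 0.29 (adjusted p = 1.1e-05) and left a fall of 1.74 under the knockdown.

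JUN (ENSG00000177606, chr1:58776845-58784048, 1 exon), the gene of c-Jun, whose protein can switch on its own gene, stayed between 134 and 187 CPM in the 12 libraries. It measured 161, 167 and 160 CPM in control, 171, 174 and 187 in RAS, 160, 142 and 152 in RAS/shDOT1L, and 135, 138 and 134 in DOT1L OE. The DOT1L OE libraries were the lowest of the 12. JUN was 1.20-fold lower in DOT1L OE than in control (log2 change -0.26 ± 0.05, edgeR adjusted p = 5.61e-05) and 1.15-fold lower with the DOT1L hairpin than with HRASG12V alone (-0.21 ± 0.06, adjusted p = 0.00517). Its 1.09-fold rise in RAS (log2 change 0.12 ± 0.05, adjusted p = 0.0431) turned negative when libraries were scaled by size alone (-0.08, adjusted p = 0.190) or with the GC offset (-0.24, adjusted p = 0.000213), and no direction is given for it; it also failed the test without control replicate 1 or 3 or RAS replicate 3 (adjusted p 0.122 to 0.216). The same offset brought the knockdown difference to 0.00 (adjusted p = 0.996). RAS/shDOT1L and control differed by -0.10 (adjusted p = 0.158).

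FOSB (ENSG00000125740, chr19:45467995-45475179, 4 exons) is an immediate-early gene whose truncated protein form is long-lived. It was scarce in control libraries, with 1.08, 0.539 and 1.41 CPM, and reached 14.0, 12.4 and 11.8 CPM in RAS. RAS/shDOT1L libraries held 1.89, 2.45 and 1.96 CPM, and DOT1L OE libraries 1.92, 1.21 and 1.92. The RAS libraries stood alone, and the other 9 lay between 0.539 and 2.45 CPM. RAS exceeded control 12.5-fold (log2 change 3.64 ± 0.28, edgeR adjusted p = 3.22e-13), the largest rise of the 10, and the knockdown lay 5.98-fold below RAS (-2.58 ± 0.25, adjusted p = 1.22e-10). Neither RAS/shDOT1L (adjusted p = 0.0986) nor DOT1L OE (adjusted p = 0.181) passed the test against control, with log2 changes of 1.05 ± 0.54 and 0.73 ± 0.47. Behind the control values are 10 to 28 reads a library. The span of FOSB overlaps that of ERCC1 on the other strand, with no shared exonic base. ERCC1 had 1126 to 3907 counts a library, against 10 to 28 for FOSB in control and 185 to 235 in RAS. Whether any ERCC1 reads were counted for FOSB was not tested.

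FOS (ENSG00000170345, chr14:75278826-75282230, 4 exons), the classic immediate-early gene, was scarce, with 7 to 12 counts in control libraries and 37 to 60 in RAS. Its levels were 0.361, 0.431 and 0.604 CPM in control, 2.21, 3.64 and 2.75 in RAS, 1.24, 1.51 and 1.26 in RAS/shDOT1L, and 1.76, 1.36 and 2.11 in DOT1L OE. All 9 infected libraries with activated HRAS or DOT1L stood above the 3 controls. FOS rose 6.06-fold in RAS (log2 change 2.6 ± 0.55, edgeR adjusted p = 0.000116) and 3.71-fold in DOT1L OE (1.89 ± 0.51, adjusted p = 0.00182). The knockdown value was 2.11-fold lower than RAS without passing the test (log2 change -1.08 ± 0.48, adjusted p = 0.0580), although RAS and RAS/shDOT1L libraries did not overlap. It passed without RAS replicate 1 (adjusted p = 0.0480), with a filter of 1 CPM in 3 libraries (0.0465) and by DESeq2 (0.0317). Against control the RAS/shDOT1L value passed narrowly (log2 change 1.51 ± 0.65, adjusted p = 0.0487) and did not pass once any 1 of the 6 libraries was left out (adjusted p 0.0857 to 0.169).

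FOSL1 (ENSG00000175592, chr11:65892049-65900573, 4 exons) encodes FRA-1, a FOS protein without the strong activation domain of FOS and the main one of many growing and invasive cells. Control libraries held 163, 175 and 176 CPM, RAS libraries 240, 248 and 248, RAS/shDOT1L libraries 195, 186 and 189, and DOT1L OE libraries 161, 160 and 148. The 4 groups did not overlap. The rise in RAS was 1.43-fold (log2 change 0.51 ± 0.05, edgeR adjusted p = 5.63e-11) and the fall under the knockdown 1.27-fold (-0.35 ± 0.05, adjusted p = 1.61e-06). With the GC offset neither passed, at 0.06 (adjusted p = 0.277) and -0.07 (adjusted p = 0.279). The difference of -0.13 ± 0.05 between DOT1L OE and control (adjusted p = 0.0325) was lost without control replicate 2 or 3 or DOT1L OE replicate 2 or 3 (adjusted p 0.0562 to 0.182). RAS/shDOT1L lay 0.15 ± 0.05 above control (adjusted p = 0.0190), a difference lost without control replicate 1 (adjusted p = 0.135) and at -0.01 with the GC offset.

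FOSL2 (ENSG00000075426, chr2:28392448-28417317, 4 exons), the gene of FRA-2, was the member that fell in RAS. It measured 88.8, 84.6 and 95.9 CPM in control, 78.1, 71.0 and 66.0 in RAS, 70.9, 80.1 and 83.1 in RAS/shDOT1L, and 71.9, 74.3 and 69.0 in DOT1L OE. Control libraries lay above all others, and the other 3 groups overlapped. Against control the fall was 1.25-fold both in RAS (log2 change -0.32 ± 0.07, edgeR adjusted p = 0.000255) and in DOT1L OE (-0.32 ± 0.07, adjusted p = 9.27e-05). In RAS/shDOT1L it was 1.15-fold (adjusted p = 0.0279), lost without control replicate 1 or 3 or RAS/shDOT1L replicate 1 (adjusted p 0.0550 to 0.162). RAS/shDOT1L and RAS differed by 0.14 ± 0.08 (adjusted p = 0.165), which passed once GC was offset (0.28, adjusted p = 0.00763) or RAS/shDOT1L replicate 1 was left out (adjusted p = 0.0499).

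MAFF (ENSG00000185022, chr22:38200767-38216507, 3 exons), the small MAF gene, rose with activated HRAS. Its level was 92.8, 90.1 and 78.4 CPM in control, 261, 258 and 271 in RAS, 164, 176 and 156 in RAS/shDOT1L, and 82.6, 99.0 and 98 in DOT1L OE. RAS stood highest and RAS/shDOT1L between it and the other groups, which overlapped. In RAS it was 3.02-fold above control (log2 change 1.60 ± 0.06, edgeR adjusted p = 5.71e-22) and the knockdown lay 1.57-fold below RAS (-0.65 ± 0.06, adjusted p = 1.27e-11), a fall of 0.37 with the GC offset. In RAS/shDOT1L it was still 1.91-fold above control (log2 change 0.93 ± 0.07, adjusted p = 2.33e-12). DOT1L OE and control differed by 0.10 ± 0.07 (adjusted p = 0.217), which passed without DOT1L OE replicate 1 (0.19, adjusted p = 0.0199). MAFF shares 326 exonic bases with PLA2G6 on the other strand, which had 27 to 81 counts a library against 1549 to 4369 for MAFF.

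ATF3 (ENSG00000162772, chr1:212565334-212620777, 4 exons), a stress-induced repressor or activator depending on its partner, had its highest level in DOT1L OE. Control libraries held 9.97, 8.03 and 8.60 CPM, RAS libraries 15.2, 20.3 and 19.5, RAS/shDOT1L libraries 19.0, 20.9 and 20.8, and DOT1L OE libraries 24.1, 26.9 and 30.9. RAS and RAS/shDOT1L overlapped, with control below and DOT1L OE above them. ATF3 rose 3.09-fold in DOT1L OE (log2 change 1.63 ± 0.13, edgeR adjusted p = 1.28e-12), 2.07-fold in RAS (1.05 ± 0.16, adjusted p = 1.23e-06) and 2.29-fold in RAS/shDOT1L (1.19 ± 0.16, adjusted p = 1.81e-07), each against control. RAS/shDOT1L and RAS differed by 0.16 ± 0.15 (adjusted p = 0.385), whereas DOT1L OE exceeded RAS/shDOT1L by 0.45 on the log2 scale (adjusted p = 0.00278).

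BATF3 (ENSG00000123685, chr1:212686417-212699840, 3 exons), a small bZIP protein best known from dendritic cells, was low everywhere, with 31 to 80 counts a library. It measured 2.27, 1.78 and 1.56 CPM in control, 2.44, 3.03 and 2.68 in RAS, 5.22, 5.02 and 3.47 in RAS/shDOT1L, and 2.61, 3.08 and 2.90 in DOT1L OE. RAS/shDOT1L libraries were the highest, though 1 of the 3 lay much nearer the others. The rise over control was 2.45-fold (log2 change 1.29 ± 0.35, edgeR adjusted p = 0.00267). No pair of neighbours in the order of the 4 groups passed the test. RAS/shDOT1L exceeded RAS by 0.77 ± 0.34 (adjusted p = 0.0613), which passed once GC was offset (1.09, adjusted p = 0.00947), with library size scaling alone (adjusted p = 0.0404) and without RAS/shDOT1L replicate 3 (adjusted p = 0.0359).

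The order of the groups took several forms. In the pairs used for the order alone, 65.6% of all genes passed between RAS and DOT1L OE and 64.6% between RAS/shDOT1L and DOT1L OE. RAS had the highest mean level for JUNB, JUND, FOS, FOSB, FOSL1 and MAFF, control for FOSL2, RAS/shDOT1L for BATF3 and DOT1L OE for ATF3. For JUN the RAS mean was the highest in CPM, but its difference from control turned to -0.08 with library size alone and to -0.24 with the GC offset. For FOS the top of the order is not settled, since RAS and DOT1L OE differed by 0.71 (edgeR adjusted p = 0.0910) and DOT1L OE and RAS/shDOT1L by 0.39 (adjusted p = 0.459) on the log2 scale. FOSL2 in RAS/shDOT1L, DOT1L OE and RAS could not be ordered either (adjusted p = 0.213 and 0.952 for neighbours), nor could FOSB in RAS/shDOT1L and DOT1L OE (adjusted p = 0.526).

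Read per kilobase of exon, the large folds of FOS and FOSB belonged to a small part of the FOS family mRNA. FOSL1 made up 87.6% ± 0.792 (SD, n = 3 here and below) of the summed counts per kilobase of the 4 FOS genes in control, 90.8% ± 0.751 in RAS and 89.6% ± 0.946 in RAS/shDOT1L libraries, with 88.4% ± 0.295 in DOT1L OE. FOSB rose from 0.175% ± 0.0744 in control to 1.61% ± 0.161 in RAS and stood at 0.337% ± 0.0537 and 0.325% ± 0.0854 in the other groups. FOS itself stayed below 1% in all 12 libraries, and FOSL2 went from 12.1% ± 0.709 in control to 7.0% ± 0.665 in RAS. The family as a whole measured 104 ± 4.08 CPM per kilobase in control, 143 ± 1.87 in RAS and 112 ± 1.68 in RAS/shDOT1L libraries, with 93.7 ± 4.01 in DOT1L OE. Per length, then, FOSL1 was the predominant FOS family mRNA in every group.

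The JUN family, by contrast, changed its make-up. In control libraries JUND was 54.9% ± 0.685, JUN 33.4% ± 0.729 and JUNB 11.6% ± 0.0514 of the summed counts per kilobase of the 3 genes. In RAS the JUNB share was 30.8% ± 1.28 and the JUN share 17.9% ± 0.459, with JUND at 51.3% ± 0.832. RAS/shDOT1L libraries held JUNB at 49.2% ± 1.71 and JUND at 21.2% ± 1.36, so JUNB was the first of the 3 there and JUND the last. DOT1L OE libraries were between control and RAS for JUNB, at 22.8% ± 0.836, with JUND at 52.3% ± 1.28. The summed level was 134 ± 4.86 CPM per kilobase in control, 273 ± 20 in RAS and 142 ± 6.76 in RAS/shDOT1L libraries, with 150 ± 5.11 in DOT1L OE. RAS/shDOT1L was thus closer to control than to RAS in the sum of the JUN genes, and its JUNB and JUND shares lay outside those of both. These shares are within a library and carry no scaling between libraries, but they depend on the exon length given to each gene and were not tested. The genes also differ in transcript GC content (JUN 56.1%, JUNB 64.9%, JUND 69.9%), with which the changes of all genes moved. An offset for GC took the log2 changes in RAS against control to -0.24 for JUN, 1.81 for JUNB and 0.29 for JUND. No share or sum of either family was computed with that offset.

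**Figure D3:**
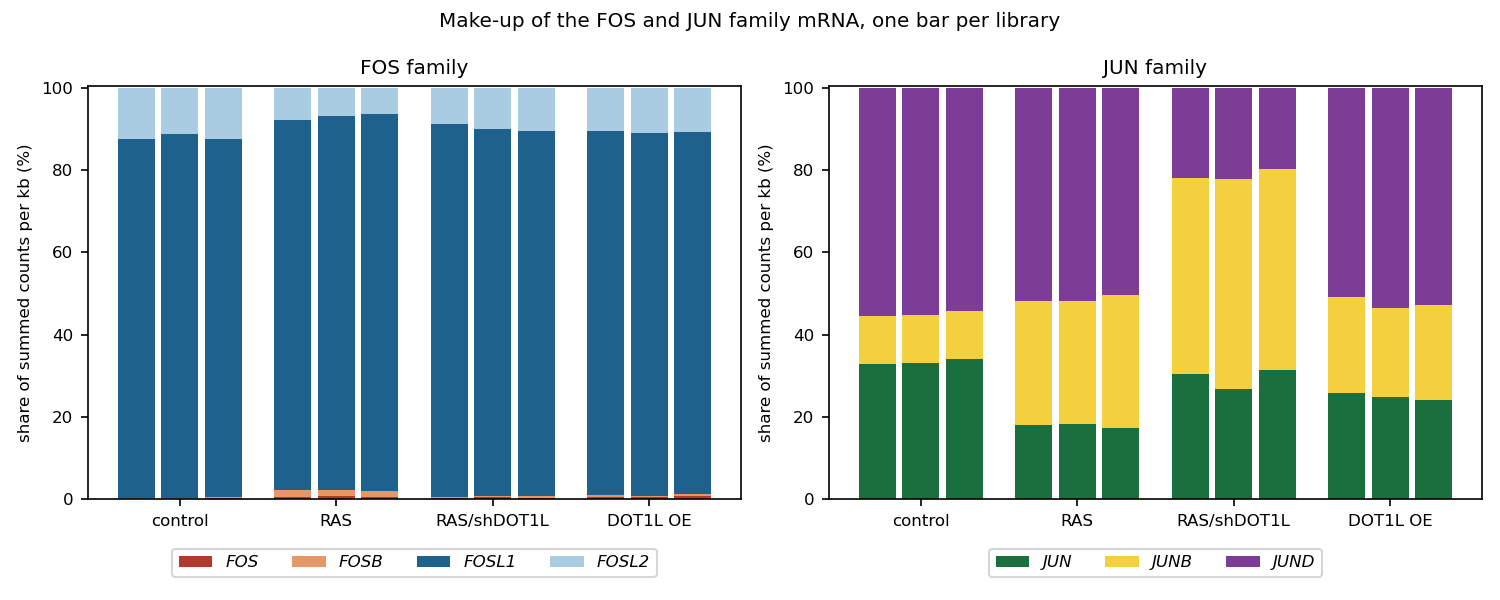
Share of each gene (y axis, % of summed counts per kilobase of exon) in the FOS family (left) and the JUN family (right), with 1 bar per library in the 4 groups (x axis). FOSL1 fills most of every bar on the left, and on the right the JUND share is smallest in the 3 RAS/shDOT1L bars.

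Transcript GC content moved with the changes of all genes, and the AP-1 transcripts are GC-rich. From the lowest to the highest of 10 equal bins of genes by GC content the median log2 change went from -0.63 to 0.59 in RAS against control and from 0.42 to -0.44 in RAS/shDOT1L against RAS, and the range was narrower in DOT1L OE (-0.22 to 0.12) and in RAS/shDOT1L (-0.24 to 0.17) against control. The members ran from 50.4% GC for ATF3 to 64.9% for JUNB and 69.9% for JUND, and the highest bin began at 61.9%. The offset sets this trend to 0. With it, JUNB (1.81), FOS (2.39), FOSB (3.21), ATF3 (0.91), MAFF (1.13) and, by less, JUND (0.29) remained higher in RAS than in control on the log2 scale. JUND (-1.74), FOSB (-2.32) and, by less, MAFF (-0.37) remained lower in RAS/shDOT1L than in RAS. What caused the trend was not tested.

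**Figure D4:**
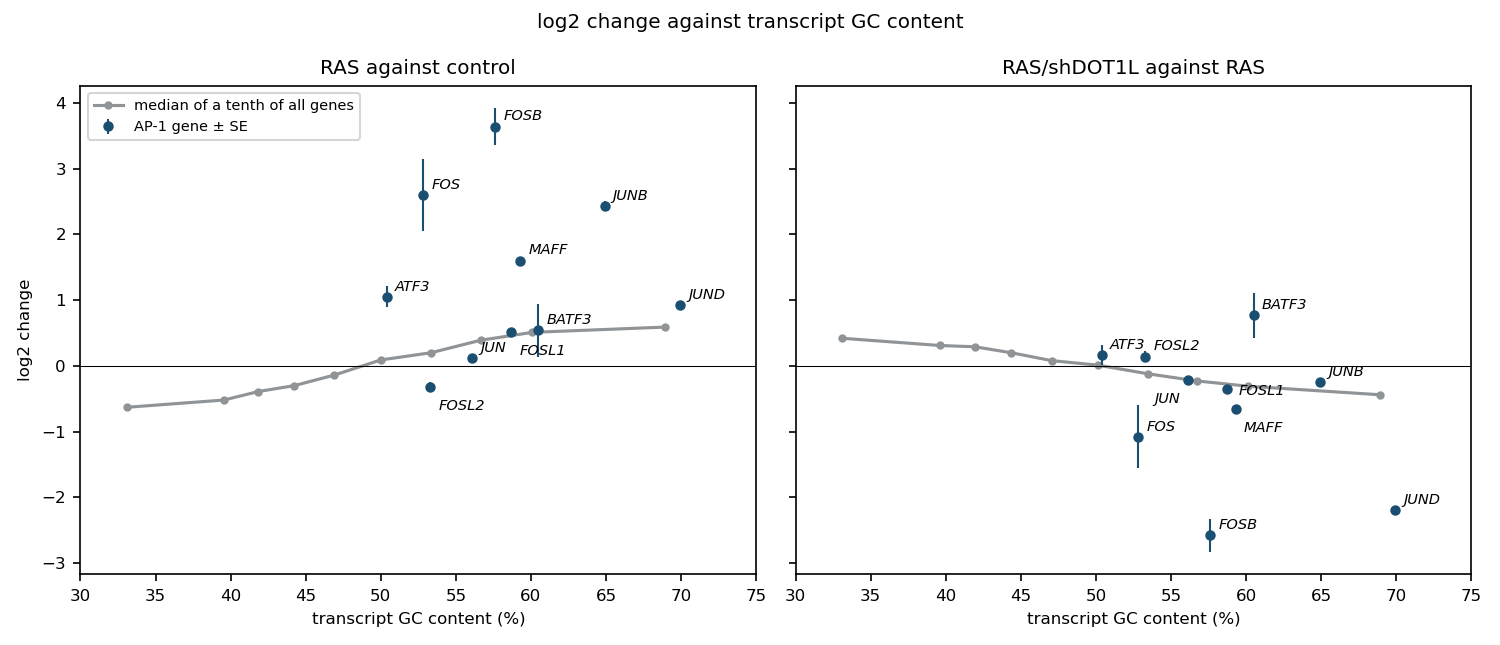
log2 change ± SE (y axis) of each AP-1 gene against the GC content of its transcript (x axis, %), in RAS against control (left) and RAS/shDOT1L against RAS (right); the grey line joins the medians of 10 equal bins of all genes. FOSL1 lies near the grey line in both panels, and JUN lies near it on the right and below it on the left. FOSB, FOS, JUNB and MAFF lie far above the line on the left, and JUND and FOSB far below it on the right.

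Other bZIP genes, the possible partners and rivals of AP-1, changed in both directions. Of 20 tested of the 24 listed, 6 were higher and 7 lower in RAS than in control, with a median log2 change of 0.00 against -0.04 for all genes, of which 31.9% were higher and 32.0% lower. MAFG, a small MAF gene like MAFF, rose 2.31-fold (edgeR adjusted p = 1.21e-14), and BACH1, a haem-regulated repressor that binds with small MAF proteins, fell 2.01-fold (adjusted p = 1.57e-11). Under the knockdown 5 of 21 were higher and 6 lower than in RAS (26.3% and 26.4% of all genes), among them MAFG (2.33-fold lower, adjusted p = 1.32e-12), MAFK (1.58-fold lower, adjusted p = 2.11e-08) and NFE2L1 (1.77-fold lower, adjusted p = 1.7e-14). MAFF and MAFG thus both went up in RAS and down under the knockdown. In DOT1L OE 6 of 21 were higher and 8 lower than in control (29.9% of all genes in each direction), with NFE2L2, the oxidative stress regulator, 1.56-fold higher (adjusted p = 3.01e-10) and ATF4, the amino acid stress regulator, 1.34-fold lower (adjusted p = 2.23e-08). RAS/shDOT1L against control gave 2 of 20 higher and 7 lower (27.9% and 27.6% of all genes).

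The kinases, serum response factors and ubiquitin ligases that act on AP-1 changed at the mRNA level without a common direction in RAS, where 11 of 28 were higher and 12 lower (31.9% and 32.0% of all genes). MAP2K2 (2.01-fold, edgeR adjusted p = 1.81e-20) and MAP2K3 (1.82-fold, adjusted p = 1.33e-16), which activate the ERK and p38 kinases, and ELK1 (2.20-fold, adjusted p = 1.57e-16), which drives FOS with SRF, rose. Under the knockdown 3 of 27 were higher and 12 lower than in RAS (26.3% and 26.4% of all genes), with a median of -0.21 against 0.03 for all genes. ELK1 was 1.84-fold lower (adjusted p = 5.6e-12), SRF 1.60-fold lower (adjusted p = 1.23e-10) and MAPK9, which encodes the JUN kinase JNK2, 2.62-fold higher (adjusted p = 5.32e-12). In DOT1L OE 5 of 28 were higher and 8 lower than in control (29.9% of all genes each way), among them MAPKAPK2 (1.57-fold higher, adjusted p = 1.56e-13), a kinase downstream of p38, MAPK3 (1.82-fold lower, adjusted p = 1.91e-15), which encodes ERK1, and ELK3 (1.37-fold lower, adjusted p = 7.53e-07). Against control, 6 of 28 were higher and 8 lower in RAS/shDOT1L (27.9% and 27.6% of all genes).

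The other immediate-early genes were mixed as well, with 12 of 24 higher and 8 lower in RAS (31.9% and 32.0% of all genes) and a median log2 change of 0.52. IER3 rose 15.8-fold (edgeR adjusted p = 1.83e-38) and SOCS3, an inhibitor of cytokine signalling, 6.09-fold (adjusted p = 8.3e-22), whereas CCN1, a matrix protein, fell 2.43-fold (adjusted p = 7.66e-24). All 3 moved the opposite way under the knockdown: IER3 was 3.94-fold lower (adjusted p = 5.3e-29), SOCS3 2.10-fold lower (adjusted p = 1.7e-12) and CCN1 1.86-fold higher (adjusted p = 6.16e-17) than in RAS, within a list of which 9 of 22 were higher and 11 lower (26.3% and 26.4% of all genes). In DOT1L OE 13 of 22 were higher and 7 lower than in control (29.9% of all genes either way), with NR4A1, an orphan nuclear receptor, up 9.05-fold (adjusted p = 1.06e-19), the phosphatase gene DUSP1 2.82-fold higher (adjusted p = 5.3e-22) and CCN1 2.19-fold lower (adjusted p = 2.8e-21). FOS and FOSB, which belong to this class, differed in that FOS passed the test in DOT1L OE and FOSB did not; the difference between them was not tested. Set against control, 8 of 22 were higher and 6 lower in RAS/shDOT1L (27.9% and 27.6% of all genes).

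Most genes known as targets of AP-1 rose in RAS: 20 of 23 tested were higher and 3 lower (31.9% and 32.0% of all genes), with a median log2 change of 1.79. Many of them also have other regulators and belong to the SASP on which the groups were labelled, so they are no independent readout of AP-1. MMP1, the interstitial collagenase, went up 71.8-fold (edgeR adjusted p = 3.99e-46), MMP3, stromelysin, 214-fold (adjusted p = 2.52e-43) and CXCL8, the chemokine interleukin-8, 461-fold (adjusted p = 1.09e-43). Under the knockdown 18 of 23 were lower and 2 higher than in RAS (26.4% and 26.3% of all genes), with a median of -0.96: MMP1 4.85-fold (adjusted p = 1.88e-33), MMP3 8.98-fold (adjusted p = 1.63e-34) and CXCL8 8.23-fold lower (adjusted p = 6.2e-34). In DOT1L OE 14 of 22 were higher and 3 lower than in control (29.9% of all genes in either direction), with a median of 0.89. IL11, a cytokine of the interleukin-6 family, was 6.35-fold higher (adjusted p = 6.96e-28), MMP1 5.89-fold higher (adjusted p = 1.05e-28) and CCND1, cyclin D1, 3.33-fold lower (adjusted p = 4.43e-27). In RAS/shDOT1L 16 of 23 were above control and 4 below it (27.9% and 27.6% of all genes), with a median of 0.53. DUSP1 is in this list and among the immediate-early genes.

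Among 13703 genes, those most like each member over the 12 libraries were named by Pearson correlation of log2 CPM, which is a description since the 12 points are 4 groups of 3. MAFF was most like RGS3 (r = 0.995) and ACP5 (0.994), JUNB like PF4V1 (0.990) and C2CD2 (0.990), and JUND like THAP4 (0.989) and CRKL (0.985). FOSB went with ANKH (0.984) and SLC66A1 (0.983), FOSL1 with ENTREP3 (0.985) and MAP3K11 (0.984), and FOS with TGIF1 (0.975) and MARCKSL1 (0.973). The values were lower for JUN, with ST3GAL5 (0.970) and GNAI2 (0.960), ATF3, with TALDO1 (0.968) and ANP32A (0.963), FOSL2, with CMKLR2 (0.928), and BATF3, with INO80C (0.947) and DDHD1 (0.941).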

How the data were processed

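Libraries of oligo(dT)-enriched mRNA from IMR90 cells (4 groups of 3) were sequenced on the NovaSeq platform. The deposited values are raw read counts per gene, 1 table per library, which the authors made by aligning paired-end reads to GRCh38; STAR 2.6.1 and DESeq2 2 are named in the processing notes of the submitters. Whether the counts used strand is not given in the sources used here, so reads of overlapping antisense genes cannot be told apart. Groups came from the sample labels.

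From these counts, each pair of groups was fitted on its own 6 libraries with edgeR 4.0.16 (R 4.3.3; filterByExpr, TMM scaling, glmQLFit and the two-sided quasi-likelihood F test), with Benjamini-Hochberg adjustment over all genes tested and a threshold of 0.05. The SE of an edgeR log2 change was not fitted directly. It is the size of that change divided by the square root of its F value. Changes over 1.5-fold were tested with glmTreat in the same fit. CPM values are TMM-scaled, and levels of different genes were compared per kilobase of union exon length (GENCODE 44, GRCh38). The GC offset was the median log2 level of genes in 20 bins of transcript GC content, each gene relative to its mean over the libraries. Promoter windows came from RefSeq (GRCh38.p14). Of the gene identifiers, 93.5% were in the name table used. The scripts were tested on simulated counts. A count of 0 in a library allows up to 3 counts, and depth limits FOS, FOSB and BATF3 most. Alternatives were other scalings, filters and tools (limma 3.58.1, DESeq2 1.42.0), 1 fit over all groups, a replicate block, canonical transcript length and leaving out each library.

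The members, gene lists and tests were chosen with earlier results of these data known. Named from each list were up to 3 genes with the smallest p in each of the first 3 comparisons, and for each member the 2 genes with the highest correlation (log2 CPM, prior count 2). A few genes that this rule named are not reported here.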

Additional observations from a re-analysis of the deposited data

How the results depend on the processing

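The small changes depended on scaling and base composition. The direction turned for JUN in RAS against control with library size alone (-0.08), which moved the median of all genes there from -0.043 to -0.241, and with the GC offset (-0.24). With that offset it also turned for JUN (0.0) and JUNB (0.19) in RAS/shDOT1L against RAS, for JUND in DOT1L OE against control (-0.04) and for FOSL1 in RAS/shDOT1L against control (-0.01). The offset also brought the calls in RAS against control from 13 to 7 for the other bZIP genes and from 23 to 15 for the kinase list. Over all 13554 genes tested the calls went from 8670 to 7220. The canonical transcript length moved 15 of the FOS and JUN family shares by at least their SD and left 13 within it. Among those moved was the JUND share, to 52.9% in control, 50.3% in RAS and 50.9% in DOT1L OE. With 1 library left out, the members called ran from 8 to 9 in RAS against control and 5 to 7 in RAS/shDOT1L against RAS. They ran from 5 to 8 in DOT1L OE against control, and from 5 (without control replicate 1) to 7 in RAS/shDOT1L against control. In the same order, all genes called ran from 7974 to 8517, 6483 to 6774, 7463 to 7977 and 6751 to 7314. With every library they were 8670, 7058, 8180 and 7501. The counts over 1.5-fold stayed within 1.5 times of the reported ones under every alternative run.

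Samples with the same replicate number showed little shared deviation over all genes (correlations of -0.02 to 0.04). This check cannot exclude a batch shared by part of the genes. With the replicate block 8, 6, 6 and 7 members were called in the 4 comparisons. Of all 13554, 13398, 13660 and 13519 genes tested, 8435, 6871, 8030 and 7303 were called. Over 1.5-fold the block gave 6, 2, 3 and 4 members, and 3562, 2183, 2796 and 2506 of all genes.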
